A study of Rattus norvegicus with 5 samples.

Results

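The netrins and their receptors were followed through every list of regions enriched by an antibody against N6-methyladenine (6mA) in rat DNA. The 8 genes were Dcc, Unc5a, Unc5b, Unc5c and Unc5d, which encode receptors, and Ntn1, Ntn4 and Ntng1, which encode ligands. A region belonged to a gene when the deposited annotation listed the gene's symbol in any of its columns (promoter, upstream 2 kb, exon, intron, downstream 2 kb or gene body). By that rule the 8 genes, of 23553 symbols with a region, held 631 of 545424 listed regions. Of these, 422 were peaks of a library over its input, and 209 were regions of 1 cell type's library over another's. The genes were chosen by their listed regions, that is by the number and fold of these peaks, so these values are given as a description with no test.

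The study mapped 6mA in neural stem cells (NSCs, the SCR022 cell line), Neurons and Astrocytes, with 1 immunoprecipitated library each. Input DNA, taken before the antibody was added, was among the samples for NSCs and Neurons. The Astrocyte peaks are named by the authors as called over an Astrocyte input, which is not among the samples analysed here, so all 143 Astrocyte folds rest on an input whose depth was not examined. No genotype, treatment, time, animal or age is named for any group, and the labels do not say where the Neurons and Astrocytes came from or how pure they were. RNA was not measured, so the cell types could not be checked against marker genes. The immunoprecipitated libraries held 15760246 to 16095308 reads, of which 86.55% to 87.94% mapped uniquely, and the inputs held 22329441 and 27936774. With 1 library per cell type there was no spread between replicates, and a difference between cell types cannot be told apart from a difference between libraries. Peak positions, folds (enrichment over input) and scores (10 times the −log10 p of the peak) are the authors' own. The lowest score in the files was 50 (p of 1e-05), and the member peak nearest to it scored 50.02.

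Netrins are secreted or membrane-anchored proteins, related to laminins, that guide growing axons and migrating neurons. Dcc mediates attraction to netrin-1, while Unc5 receptors, alone or together with Dcc, mediate repulsion, and both kinds of receptor are also known as dependence receptors that can trigger cell death when no ligand is bound. 6mA is an adenine methylation that is common in bacterial DNA, and its amount in mammalian DNA is debated.

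The promoters are shown for Dcc, Unc5a and Ntng1, because these were the members with a peak annotated to a promoter. Each line gives the 250 bases before the gene's start, 5′ to 3′ on the gene's strand, from the RefSeq annotation of GRCr8. Capitals mark matches, on either strand, to CAGGC, to its variant ending in T (CAGGT) and to the forms of both that begin with G (GAGGC and also GAGGT). This motif has been reported for mammalian 6mA, and neighbouring matches can overlap.
Dcc, GRCr8 chr18:68247675-68247924, minus strand: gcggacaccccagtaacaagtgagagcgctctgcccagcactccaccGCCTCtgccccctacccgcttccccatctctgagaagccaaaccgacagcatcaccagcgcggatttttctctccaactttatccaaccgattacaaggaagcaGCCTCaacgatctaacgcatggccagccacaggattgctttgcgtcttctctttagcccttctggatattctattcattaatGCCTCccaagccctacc
Unc5a, GRCr8 chr17:9675664-9675913, minus strand: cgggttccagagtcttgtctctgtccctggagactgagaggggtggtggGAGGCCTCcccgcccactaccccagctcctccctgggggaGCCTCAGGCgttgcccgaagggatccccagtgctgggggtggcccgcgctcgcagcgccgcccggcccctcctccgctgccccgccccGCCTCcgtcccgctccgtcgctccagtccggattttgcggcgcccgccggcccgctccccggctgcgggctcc
Ntng1, GRCr8 chr2:200515032-200515281, minus strand: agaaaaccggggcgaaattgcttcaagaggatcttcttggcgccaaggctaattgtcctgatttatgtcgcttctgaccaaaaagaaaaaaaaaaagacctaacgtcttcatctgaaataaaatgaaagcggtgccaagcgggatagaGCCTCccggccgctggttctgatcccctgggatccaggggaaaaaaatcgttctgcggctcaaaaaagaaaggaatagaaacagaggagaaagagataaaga
The Dcc sequence held 3 matches, at 203, 99 and 17 bases before the start. Unc5a held 5, in a sequence with 75.6% G and C, and Ntng1 held 1, in a sequence with 44.8%. Among 33469 promoters of the same length, 90.7% held at least 1 match, 52.7% at least 3 and 19.3% at least 5, so the presence of a match set none of these genes apart. RefSeq sequences were matched for 5 of the 8 genes. The peak files' own build was not given in the sources used here, so it is not known whether the promoter peaks cover these bases.

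All 8 genes had at least 1 peak in each cell type. For comparison, 42.8% of 20944 protein-coding genes had one in NSCs, 46.1% in Neurons and 43.1% in Astrocytes. Genes were matched by their GRCr8 symbol, and a symbol absent from the deposited annotation counted as having no peak, which can lower such shares. Among the 2505 genes of at least 100 kb in GRCr8, the shares were 88.5%, 89.0% and 88.3%, and 6 of the 8 members are that long. Having at least 1 peak therefore did little to set the long members apart from other long genes. Their numbers of peaks were higher than is typical of long genes. Per 100 kb, each of the 8 members exceeded the median long gene, except Unc5b in NSCs and Unc5a in Astrocytes. The members were chosen partly by their number of peaks, so this is a description only. Together the 8 members held 131 peaks in NSCs, 148 in Neurons and 143 in Astrocytes. Their median fold was 12.0 in NSCs, 12.7 in Neurons and 11.8 in Astrocytes, and over all peaks annotated to a gene it was 12.3, 12.1 and 12.4. Introns held 127, 145 and 141 of the members' peaks, promoters 3, 2 and 1, and CpG islands 0 in each cell type. The shares of these classes among all peaks annotated to a gene were not taken. The class counts therefore describe the members and do not set them apart from other genes.

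**Figure D1:**
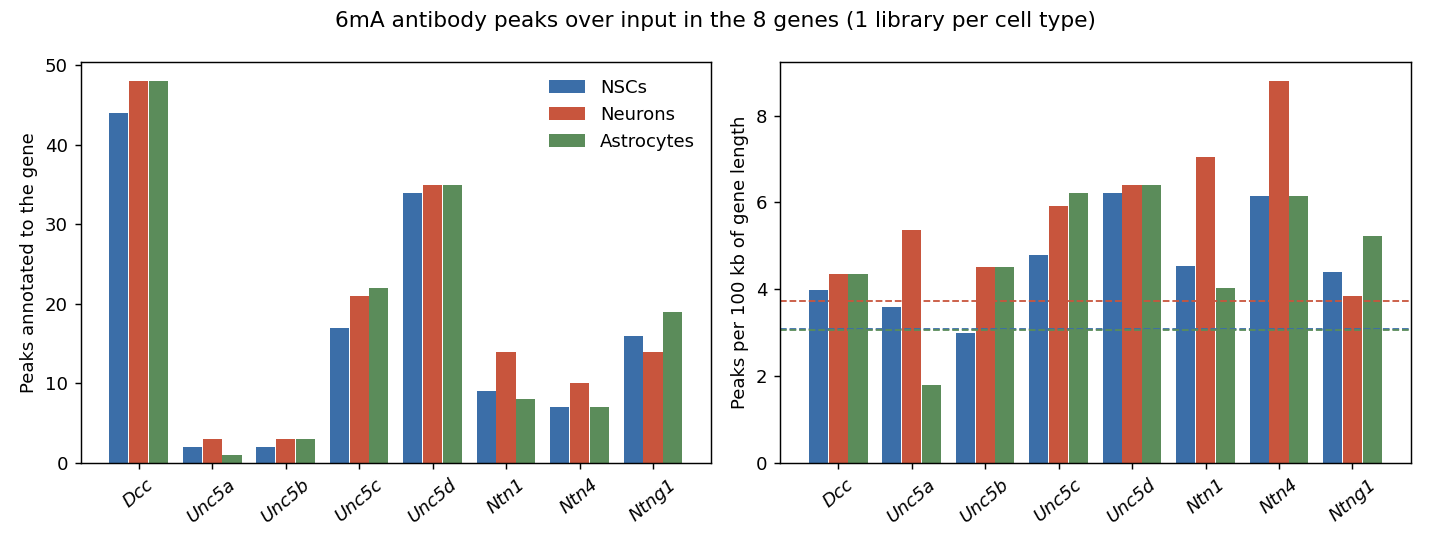
Left, number of peaks annotated to each gene in NSCs, Neurons and Astrocytes (1 library each, so no error bars). Right, the same per 100 kb of gene length in GRCr8, where dashed lines mark the median of 2505 genes of at least 100 kb for each cell type. Dcc had the most peaks (44, 48 and 48), while Ntn4 in Neurons had the most per 100 kb (8.79).

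Dcc, the netrin receptor of attracted axons, spans 1104 kb in GRCr8 and held 44 peaks in NSCs, 48 in Neurons and 48 in Astrocytes on chromosome 18. Per 100 kb this was 3.99, 4.35 and 4.35 peaks, at percentiles 62.8, 58.8 and 68.8 of the genes of at least 100 kb. Relative to its length, Dcc was therefore in the middle part of the long genes. Merged across the cell types by an overlap of at least 1 bp, the peaks made 86 loci. Of these, 17 had a peak in all 3 cell types, 20 in a pair of them and 49 in 1 of them.

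The strongest locus of Dcc in NSCs was an intronic one at 66998314 to 66998845, with folds of 74.0 in NSCs, 61.6 in Neurons and 62.4 in Astrocytes. The strongest in Neurons and in Astrocytes was another intron locus, at 67352641 to 67353234, with folds of 52.7 in NSCs, 66.4 in Neurons and 70.0 in Astrocytes. At this locus the authors' deposited table listed Neurons over NSCs, with a fold of 5.08. At the first locus, no comparison list held a region. Further loci with a peak in every cell type lay at 66680279 to 66681082, with folds of 33.9, 38.6 and 38.2 in NSCs, Neurons and Astrocytes, and at 67601228 to 67601899, with 41.9, 20.7 and 28.0.

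The promoter of Dcc had a peak in every cell type, within 67630750 to 67631545. Its fold was 28.8 in NSCs, 31.4 in Neurons and 14.8 in Astrocytes, and its score 301, 601 and 195. The authors' deposited table listed it as higher in Neurons than in Astrocytes, with a fold of 4.45. It was the 1 member promoter with a region in any comparison list. Of all protein-coding genes, 3.25% had a promoter region for Neurons over Astrocytes, and 1.41% to 2.78% had one in the other comparison lists. A promoter peak was found in 6.84% of protein-coding genes in NSCs, 8.49% in Neurons and 6.86% in Astrocytes.

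Other Dcc loci differed between the lists. At 66933530 to 66934224 the fold was 7.52 in NSCs and 19.3 in Neurons, and no Astrocyte peak was listed. The authors' deposited table gave this locus a fold of 5.89 for Neurons over NSCs and 20.8 for Neurons over Astrocytes. At 67382874 to 67383287 a peak was listed for Astrocytes, with a fold of 17.8, and for neither of the other cell types. There the authors' deposited table gave 8.26 for Astrocytes over NSCs and 18.2 for Astrocytes over Neurons. At 67013888 to 67014393 the fold was 30.1 in NSCs and 19.1 in Astrocytes, with no Neuron peak and a fold of 11.7 for NSCs over Neurons in the authors' deposited table. A stretch of 190 kb from 66776192 to 66966076 held 15 loci, none of them with a peak in all 3 cell types. It was chosen as the longest stretch of Dcc between neighbouring loci shared by all 3, so it holds no shared locus by definition. One Astrocyte locus of Dcc, at 66850652 to 66851225, was also annotated to LOC108348868.

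**Figure D2:**
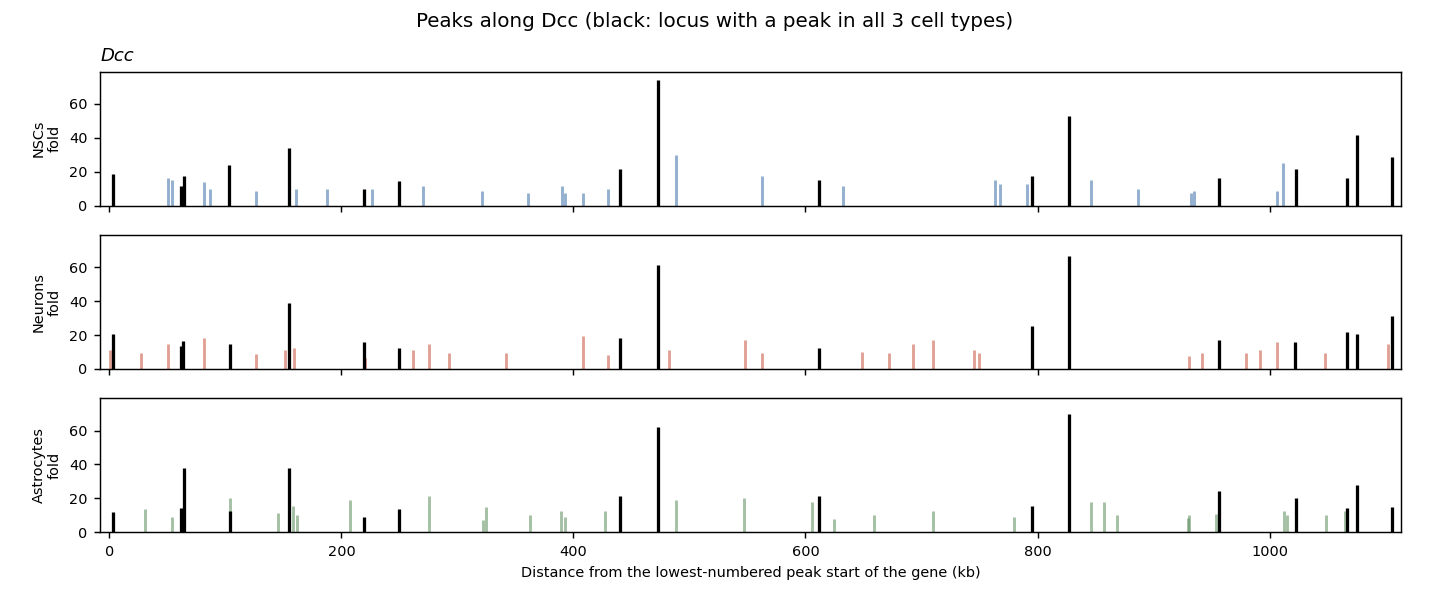
Fold over input of each Dcc peak, against the distance in kb from the peak start with the lowest coordinate, for NSCs, Neurons and Astrocytes. Black lines are the 17 loci with a peak in all 3 cell types and coloured lines the other loci. The promoter is at the right end, and the tallest lines reach folds of 74.0, 66.4 and 70.0.

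The long Unc5 genes were more densely covered than Dcc. Unc5d, a receptor known from migrating cortical neurons, spans 547 kb and held 34 peaks in NSCs and 35 in both Neurons and Astrocytes on chromosome 16. That is 6.22, 6.40 and 6.40 peaks per 100 kb, at percentiles 87.0, 82.6 and 88.8 of the long genes. Unc5c, a repulsive receptor that spans 354 kb on chromosome 2, held 17 peaks in NSCs, 21 in Neurons and 22 in Astrocytes. Its densities were 4.80, 5.93 and 6.21 peaks per 100 kb, at percentiles 73.3, 79.2 and 87.9.

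Unc5d had 63 loci, 14 of them with a peak in all 3 cell types. At 67366235 to 67366704 its fold was 44.0 in NSCs, 29.3 in Neurons and 45.8 in Astrocytes. At 67459485 to 67460227 the order was another one, with 32.3, 46.9 and 24.3. No comparison list held a region at either locus. A stretch of 146 kb between 67199103 and 67345420 held 16 loci, of which 10 had a peak in 1 cell type and 6 in a pair. It was chosen as the longest stretch of Unc5d between neighbouring loci shared by all 3, so it holds no shared locus by definition.

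Several Unc5d loci in that stretch had high folds in the cell types that had a peak there. At 67225170 to 67225651 the fold was 27.8 in Neurons and 31.8 in Astrocytes, and no NSC peak was listed. The authors' deposited table gave 8.00 for Neurons over NSCs and 8.56 for Astrocytes over NSCs at this locus. At 67310293 to 67310648 Neurons had a peak of fold 26.3, and the authors' deposited table gave 10.4 over NSCs and 8.16 over Astrocytes. At 67327636 to 67328095 the fold was 9.91 in NSCs and 23.9 in Astrocytes with no Neuron peak. There the authors' deposited table gave 24.9 for Astrocytes over Neurons and 8.39 for NSCs over Neurons. It listed no region between Astrocytes and NSCs at this locus. The fold of 24.9 was the largest of any member in the 6 comparison lists.

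Elsewhere in Unc5d, the locus at 67171509 to 67172040 had a fold of 8.77 in NSCs and 20.8 in Neurons, with no Astrocyte peak. It was in 3 lists of the authors' deposited table, at 6.69 for Neurons over NSCs, 13.3 for NSCs over Astrocytes and 20.9 for Neurons over Astrocytes. At 67138345 to 67138802 NSCs had a peak of fold 18.4, and neither Neurons nor Astrocytes had one. The authors' deposited table gave that locus 18.5 for NSCs over Neurons and 12.3 for NSCs over Astrocytes.

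Unc5c had 35 loci and 7 of them had a peak in all 3 cell types. Its strongest, an intronic locus at 247204770 to 247206036, had folds of 52.0 in NSCs, 45.5 in Neurons and 39.7 in Astrocytes, and the comparison lists held no region there. No Unc5c locus with a peak in all 3 cell types had a comparison region, while 16 of the 35 loci had one. Such loci seldom had one in the members together (12 of 53). At 247093045 to 247093452 the fold was 20.1 in Neurons and 9.31 in Astrocytes, with no NSC peak. The authors' deposited table gave 8.28 for Neurons over NSCs and 5.76 for Neurons over Astrocytes there. At 247279846 to 247280407 Neurons and Astrocytes had folds of 14.4 and 9.70, with 12.9 and 10.7 over NSCs in the authors' deposited table. One locus lay in the 2 kb downstream of the gene in every cell type, with folds of 9.50 in NSCs, 8.43 in Neurons and 11.8 in Astrocytes.

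**Figure D3:**
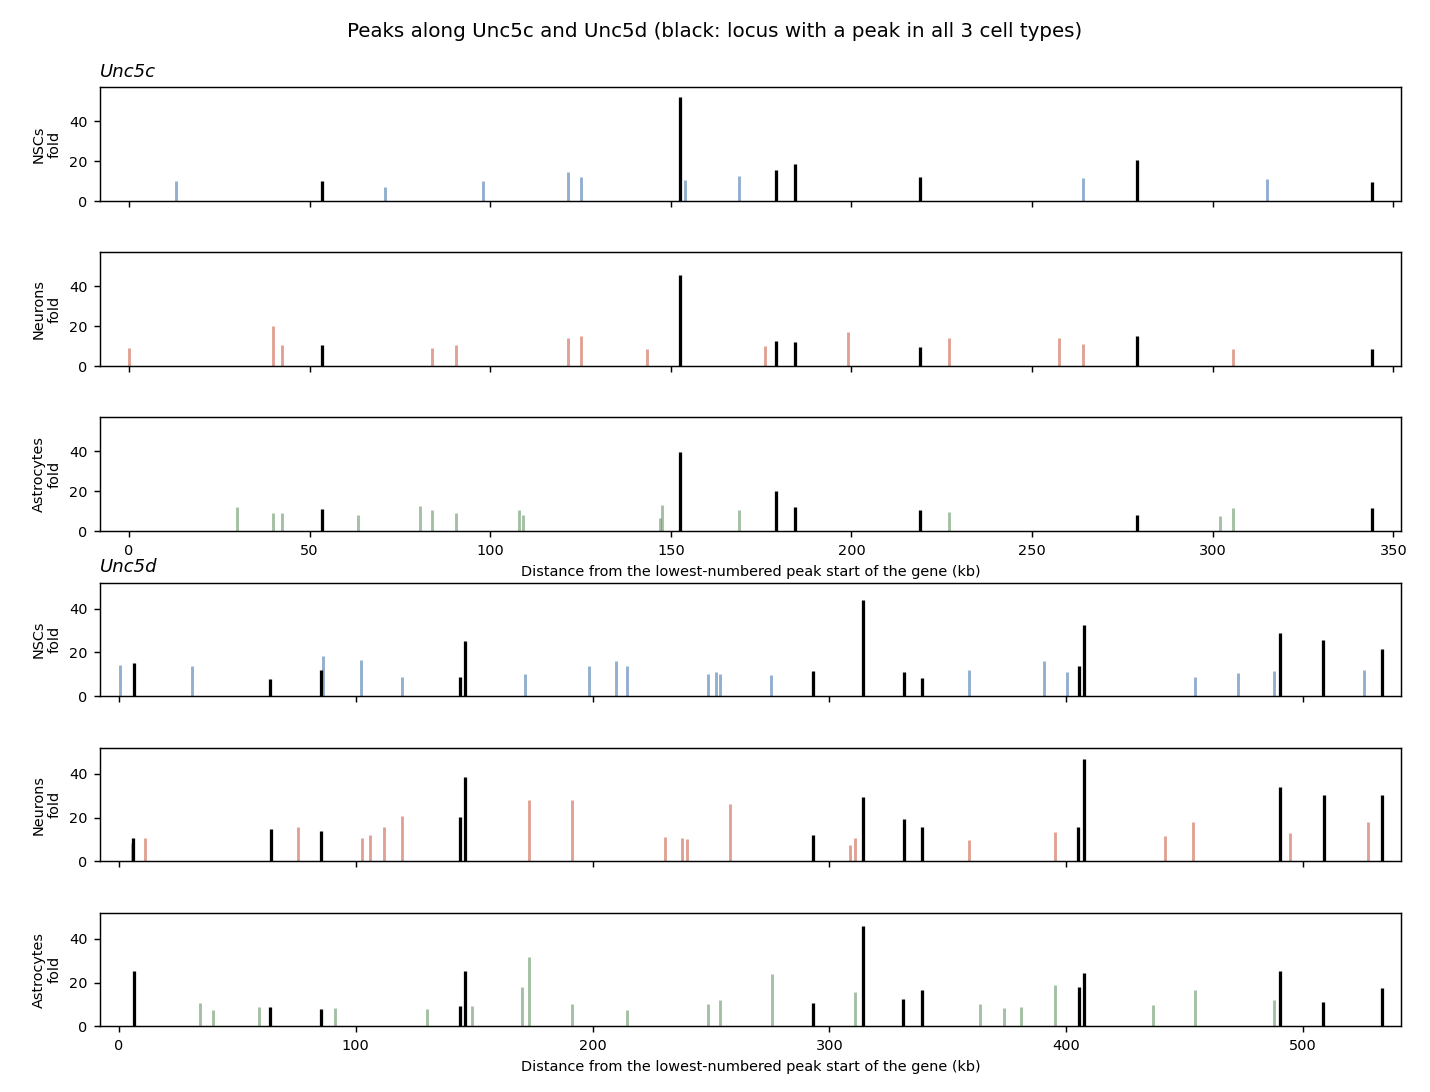
Fold over input of each peak of Unc5c (7 loci in all 3 cell types, black) and Unc5d (14 such loci), against the distance in kb from the gene's peak start with the lowest coordinate, for each cell type. Coloured lines are loci with a peak in 1 cell type or in a pair, and 1 line is drawn per locus. The tallest Unc5c line has a fold of 52.0, 45.5 and 39.7 in NSCs, Neurons and Astrocytes.

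The shorter receptor genes had few peaks. Unc5a, on chromosome 17 and 55.8 kb long, held 2 peaks in NSCs, 3 in Neurons and 1 in Astrocytes, and none of its 5 loci had a peak in all 3 cell types. Its promoter had an NSC peak at 10209975 to 10210189 (fold 9.86) and a separate Neuron peak at 10210251 to 10210756 (fold 10.8), and no Astrocyte peak. None of the comparison lists held a region at these promoter peaks. An intronic locus in a CpG island shore, at 10205415 to 10206301, had a fold of 12.9 in Neurons and 11.7 in Astrocytes and no NSC peak. It was listed at 7.54 for Neurons over NSCs and 7.66 for Astrocytes over NSCs in the authors' deposited table. Unc5b, on chromosome 20 and 66.6 kb long, held 2, 3 and 3 peaks in NSCs, Neurons and Astrocytes. An intronic locus at 30400827 to 30401593 was present in all, with folds of 8.86, 10.5 and 8.10, and another, in an exon and intron, was listed for Astrocytes at 10.3. Unc5b was the 1 member with no region in any comparison list.

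Among the ligands, Ntn1, which encodes netrin-1, is 199 kb long and held 9 peaks in NSCs, 14 in Neurons and 8 in Astrocytes on chromosome 10. Ntn4, which encodes netrin-4, a netrin also found in basement membranes, is 114 kb long and held 7, 10 and 7 on chromosome 7. Per 100 kb, Ntn1 had 4.53, 7.04 and 4.03 peaks in NSCs, Neurons and Astrocytes, and Ntn4 had 6.15, 8.79 and 6.15. Both secreted netrins thus had their highest count in Neurons, where the median long gene was also highest, at 3.72 per 100 kb against 3.10 in NSCs and 3.06 in Astrocytes. In Neurons Ntn1 lay at percentile 87.4 and Ntn4 at percentile 94.7 of the long genes.

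Ntn1 had 19 loci, 5 of them with a peak in all 3 cell types and 7 with a peak in Neurons alone. At 54962914 to 54963718 its fold was 25.6 in NSCs, 15.8 in Neurons and 46.8 in Astrocytes, and no comparison list held a region there. At 54875405 to 54876334 the fold was 32.3, 18.5 and 15.8, and the authors' deposited table listed NSCs over Neurons at 3.62 and NSCs over Astrocytes at 4.02. At 54845270 to 54845659 Neurons had a fold of 16.9 and the other cell types no peak, and the authors' deposited table gave 15.2 relative to NSCs. A Neuron peak in an exon and intron, at 54825527 to 54826087, had a fold of 9.20 over input and 9.87 over NSCs in the authors' deposited table. At 54886071 to 54886530 a peak was listed for Astrocytes, at 11.4, with 15.3 for Astrocytes over Neurons in the authors' deposited table.

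Ntn4 had 15 loci. Its strongest, at 34617980 to 34618754, had folds of 45.8 in NSCs, 37.3 in Neurons and 19.9 in Astrocytes. The authors' deposited table listed this locus in both comparisons with Astrocytes, at 4.76 for NSCs and 4.29 for Neurons. The other Ntn4 locus with a peak in every cell type, at 34545743 to 34546600, had folds of 18.9, 25.2 and 25.9 and no comparison region. An exon and intron peak at 34536410 to 34536998 had a fold of 13.8 in Neurons and 11.5 in Astrocytes, with no NSC peak, and the authors' deposited table listed Neurons over NSCs at 8.18.

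Ntng1, which encodes the membrane-anchored netrin-G1 that binds the postsynaptic adhesion protein of Lrrc4c, is 363 kb long. It held 16 peaks in NSCs, 14 in Neurons and 19 in Astrocytes on chromosome 2, so that among the ligands it had its lowest count where Ntn1 and Ntn4 had their highest. Its promoter had a peak in NSCs, at 213074018 to 213074346 (fold 11.3, score 56.2), and in neither other cell type, and no comparison list held a region there. The widest peak of all members lay in an Ntng1 intron, at a locus spanning 213028461 to 213030441. It was the NSC peak, 1530 bp wide with a fold of 12.0, and the Neuron and Astrocyte peaks there were 1085 and 1215 bp wide with folds of 3.99 and 4.15. The authors' deposited table gave 5.03 for NSCs over Neurons at this locus and had no region for NSCs over Astrocytes. At 212932522 to 212933312 the folds were 14.5, 23.1 and 21.3 in NSCs, Neurons and Astrocytes.

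Over all 8 genes, the peaks merged into 258 loci. In 53 of them (20.5%) all 3 cell types had a peak, in 57 a pair did and in 148 (57.4%) 1 cell type did. The median of the largest fold per locus was 21.6, 14.4 and 10.4 in these classes, and the median of the largest score was 198, 111 and 64.9. This order is partly set by the classes themselves, since the largest value was taken over more peaks where more cell types had one. The loci with a peak in 1 cell type comprised 42 NSC, 56 Neuron and 50 Astrocyte loci. A peak in 1 list does not show a difference between cell types: of the 148 loci, 75 had a region in any comparison list, against 12 of the 53 with a peak in all. These counts take a region of any direction. At an Ntng1 locus with a peak in NSCs alone, for example, Neurons over Astrocytes was listed at 14.2. Loci were merged for the members only, so no share over all genes stands beside the locus counts.

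**Figure D4:**
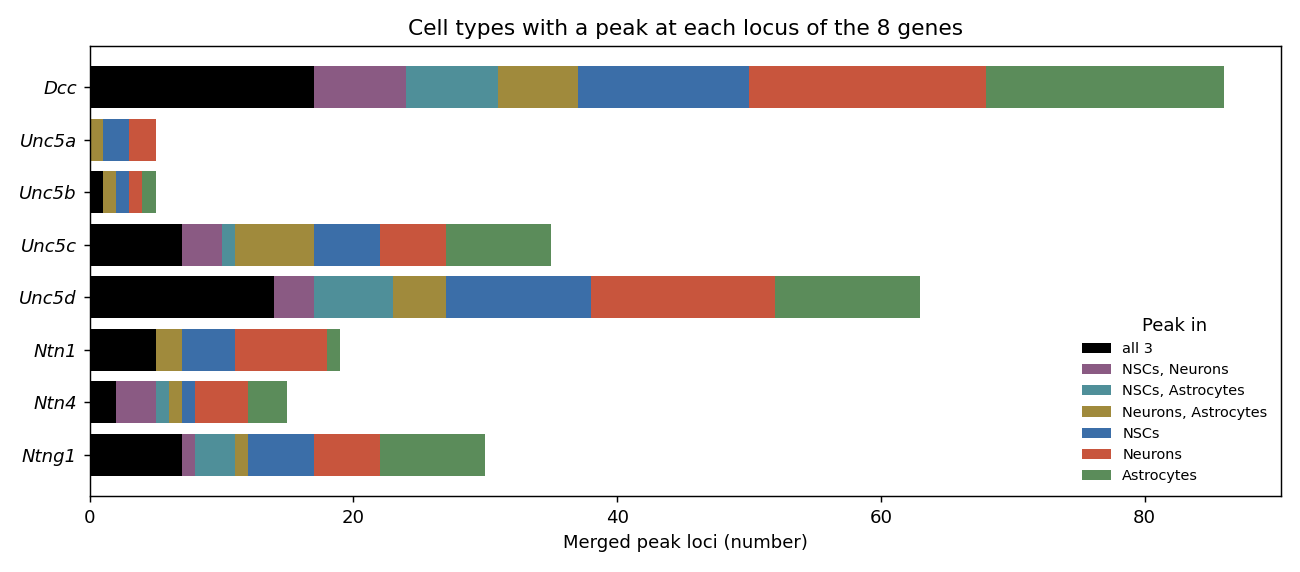
Number of merged loci per gene, coloured by the cell types that had a peak there. All 3 cell types shared 17 of 86 Dcc loci, 14 of 63 Unc5d loci, 7 of 35 Unc5c loci and 0 of 5 Unc5a loci.

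Counted per peak, 41.2% of the members' NSC peaks (95% exact Clopper-Pearson interval 32.7 to 50.2) overlapped a peak of both other cell types, against 46.1% of all NSC peaks annotated to a gene. For Neurons the share was 35.8% (28.1 to 44.1) against 40.0%, and for Astrocytes 37.1% (29.1 to 45.5) against 47.3%. These shares describe 1 library each. The intervals cover counting error only and treat peaks as independent, which neighbouring peaks of a gene may not be, so they do not serve as a test of the members against all genes. Peaks that overlapped neither other cell type made up 32.1% of the members' peaks in NSCs, 37.8% in Neurons and 35.0% in Astrocytes, against 30.6%, 35.5% and 28.7% over all genes.

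The comparison lists set 1 immunoprecipitated library against another. Each pair of cell types had a list for either direction, and lists that share a library are not independent. A region higher in Neurons than in NSCs was listed for 7 of the 8 genes, with 25.5% of protein-coding genes and 72.7% of those of at least 100 kb as background. A region higher in NSCs than in Neurons was listed for 6, with 22.5% and 66.4% as background. For Astrocytes over NSCs the count was 7 (background 20.4% and 62.5%), and for NSCs over Astrocytes it was 6 (24.3% and 70.6%). For Astrocytes over Neurons it was 6 (16.8% and 53.9%), and for Neurons over Astrocytes it was 7 (28.0% and 75.4%). The 6 members of at least 100 kb had a region in all 6 lists. Unc5a had 1 region in each of 3 lists and Unc5b had 0 in all.

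Between Neurons and NSCs, the authors' deposited table held 38 member regions for the Neuron direction and 28 for the NSC direction, or 57.6% in Neurons (95% exact interval 44.8 to 69.7), against 54.8% over all regions in a gene. Between Astrocytes and NSCs it held 31 and 33, or 48.4% in Astrocytes (35.8 to 61.3) against 42.0%. Between Astrocytes and Neurons it held 28 and 51, or 35.4% in Astrocytes (25.0 to 47.0) against 29.8%. The intervals cover counting error only, and regions of 1 pair of libraries are not replicates, so these shares are set side by side with no test.

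**Figure D5:**
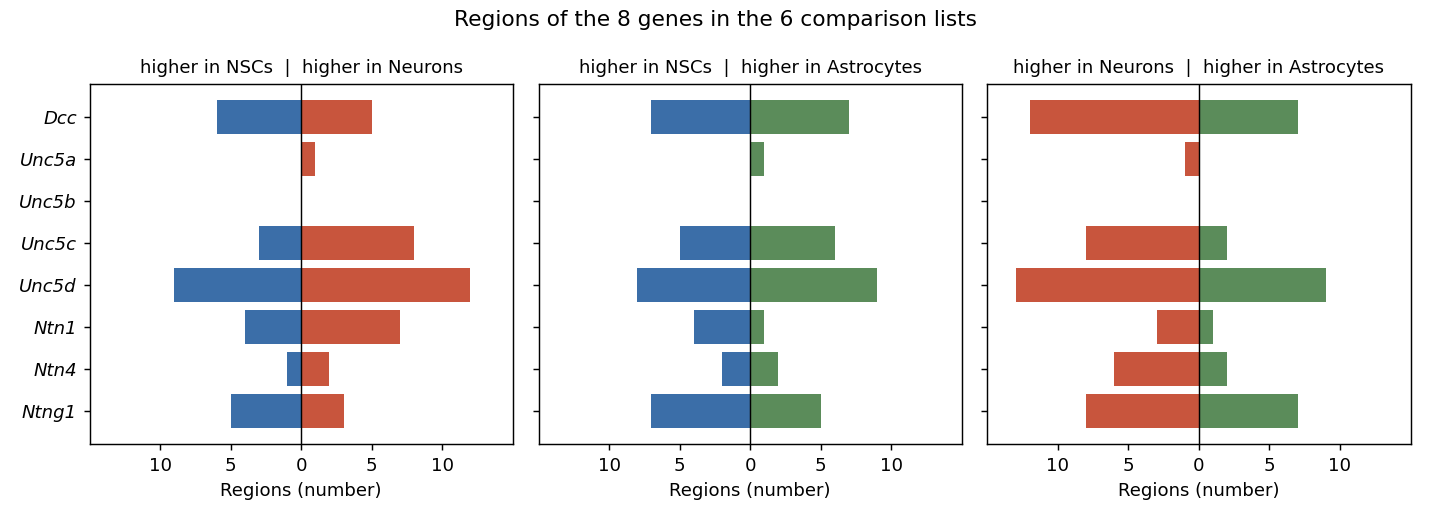
Number of regions per gene in the 6 comparison lists, 1 panel per pair of cell types, with regions higher in each cell type drawn to either side of 0. For Neurons and NSCs, Dcc had 5 regions toward Neurons and 6 toward NSCs, Unc5d had 12 and 9, and Unc5b had none in any panel.

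The genes differed in how many regions they had in each direction. Unc5c had 8 regions higher in Neurons than in NSCs and 3 the other way, and 8 higher in Neurons than in Astrocytes against 2. Ntn1 had 7 higher in Neurons than in NSCs, or 3.52 per 100 kb, at percentile 98.4 of the long genes. Its 4 regions higher in NSCs lay at percentile 92.7. Ntn4 had 6 higher in Neurons than in Astrocytes, or 5.27 per 100 kb, at percentile 99.7. Its 2 the other way lay at percentile 96.0. Ntng1 had 7 higher in Astrocytes than in Neurons, or 1.93 per 100 kb, at percentile 97.6. Its 8 the other way lay at percentile 84.8. These 3 genes thus lay above the median long gene in both directions. Dcc, with 5 regions higher in Neurons than in NSCs and 6 the other way, lay at percentiles 33.6 and 44.5, below the median long gene in both directions. These percentiles describe where each gene lay among 2505 and rest on few regions per gene. They also rest on GRCr8 symbols and lengths. A long gene whose symbol was absent from the deposited annotation counted as having no region, which can raise a percentile.

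Most comparison regions lay at a peak of the cell type that was higher and at no peak of the other, among the members as among all regions in a gene. For the members this held for 28 of 38 for Neurons over NSCs, 19 of 28 for NSCs over Neurons, 25 of 31 for Astrocytes over NSCs, 22 of 33 for NSCs over Astrocytes, 23 of 28 for Astrocytes over Neurons and 34 of 51 for Neurons over Astrocytes. That is 73.7%, 67.9%, 80.6%, 66.7%, 82.1% and 66.7% in the same order, where all regions in a gene had 65.4%, 61.1%, 63.3%, 62.2%, 68.0% and 61.5%. In each list the rest of the members' regions lay at a peak of both cell types or of neither, and 0 regions lay at a peak of the lower cell type alone. Ntng1 had the most regions at a peak of neither in 4 of the lists, for example 5 of its 8 for Neurons over Astrocytes. One region of Unc5c in an exon, at 247394847 to 247395190, was listed for NSCs over Astrocytes at 8.30 in the authors' deposited table, and no cell type had a peak there.

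Of 47 other genes of netrin signalling (further netrins, co-receptors, adaptors, kinases and cytoskeletal effectors), 35 (74.5%) had a peak in NSCs, 35 (74.5%) in Neurons and 30 (63.8%) in Astrocytes, where 42.8%, 46.1% and 43.1% of all protein-coding genes had one. All 19 of them that are at least 100 kb long had one in NSCs and Neurons and 17 had one in Astrocytes. Of all genes of that length, 88.5%, 89.0% and 88.3% had one. With 19 genes the counts are small, and the difference was not tested. The largest folds in NSCs were those of Prkca, a protein kinase C (97.2), the netrin-binding adhesion receptor Dscam (79.1), the guanine nucleotide exchange factor Trio (77.1), the adaptor Nck2 (56.9) and the Rac activator Dock1 (56.0). In Neurons Nck2 (95.0), Dock1 (89.8), Dscam (89.3), Prkca (78.6) and the actin regulator Evl (70.7) led. In Astrocytes Dscam (101), Prkca (71.1), Nck2 (69.0), Dock1 (66.3) and the actin-binding Ablim1 (49.4) led. Prkca, Dscam, Nck2 and Dock1 were among the 5 in each cell type. Dscam had 38 peaks in NSCs, 55 in Neurons and 48 in Astrocytes, numbers like those of Dcc but in a shorter gene (585 kb against 1104 kb).

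In the comparison lists, 27 of the 47 genes had a region higher in Neurons than in NSCs and 21 the other way. For Astrocytes and NSCs the numbers were 18 and 21, and for Astrocytes and Neurons 18 and 27. As shares of the 47 these were 57.4% and 44.7%, 38.3% and 44.7%, and 38.3% and 57.4%, where all protein-coding genes had 25.5% and 22.5%, 20.4% and 24.3%, and 16.8% and 28.0%. The larger number was in the same direction as over all genes in each of the 3 pairs. Of the 19 long genes, 16 and 16, 14 and 14, and 15 and 16 had such a region, where all genes of at least 100 kb had 72.7% and 66.4%, 62.5% and 70.6%, and 53.9% and 75.4%. In the Neurons over NSCs direction, the authors' deposited table gave the largest folds to the actin regulator Enah (18.5), Dock1 (16.0), Prkca (13.6), the Src family kinase Fyn (13.0) and the death-associated kinase Dapk1 (12.4). For NSCs over Neurons, the authors' deposited table gave Trio 15.8, Nck2 13.7, Dapk1 13.5, the motor Myo10 12.3 and the ubiquitin ligase Siah1 12.1. For Astrocytes over NSCs it was Lrrc4c, whose product is the ligand partner of netrin-G1, at 18.6, before Dscam (13.3), the Dcc-related receptor Neo1 (13.3), Myo10 (12.6) and Prkca (12.4) in the authors' deposited table. For NSCs over Astrocytes, the authors' deposited table gave Enah 14.0, Dapk1 13.4, Trio 13.4, Ablim1 13.3 and Myo10 13.3. For Astrocytes over Neurons, Lrrc4c, Neo1 and the Rac activator Tiam1 were each at 13.0 in the authors' deposited table, before Dock1 (12.4) and Myo10 (12.2). For Neurons over Astrocytes, the authors' deposited table gave Fyn 21.2, Tiam1 19.5, Siah1 16.9, Enah 15.6 and Dscam 13.2. Within the netrin family itself, Ntn3, a short gene, had 0 peaks in any cell type, Ntn5 had 1 in NSCs, and Ntng2 had 2, 3 and 2 in NSCs, Neurons and Astrocytes.

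The authors' deposited table of KEGG pathways counted 119 of 178 axon guidance genes with a peak in the NSC list (adjusted p-value 0.00123), 124 in the Neuron list (0.00617) and 121 in the Astrocyte list (0.00052). All 8 members were among these genes in every cell type. The authors' deposited table of gene functions counted all 6 genes of netrin receptor activity in the NSC and the Neuron list and 5 in the Astrocyte list, where Unc5cl was missing. Its adjusted p-values were 0.879, 0.948 and 0.856 in NSCs, Neurons and Astrocytes. Long genes had a peak more often than short ones, as the shares above show, and how the authors' test treated gene length is not stated.

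For members with at least 10 peaks in all, the 3 genes with the most similar numbers of regions in the 9 lists were found by the Euclidean distance between square roots of the numbers. For Dcc these were Tmem117, Nr3c1 (the glucocorticoid receptor gene) and Sorcs3, at distances of 1.27 to 1.37. For Unc5c they were Col19a1, a collagen gene, Hs3st4 and Ppm1h (0.605 to 0.856), and for Unc5d the contactin gene Cntn5, LOC100911395 and the glutamate receptor gene Grid1 (at most 1.10). For Ntn1 they were Mthfd1l, Ttll11 and Gsg1l (0.699 to 1.08), for Ntn4 Dmrt1, the cadherin gene Cdh6 and the channel gene Trpc6 (0.801 to 0.857), and for Ntng1 LOC108349983, Ltbp1 and Sbf2 (1.01 to 1.29). None of these was among the members or the other netrin signalling genes. The likeness covers 9 numbers per gene from the same 3 immunoprecipitated libraries. Nr3c1, at 122 kb, reached numbers like those of Dcc (43, 51 and 49 peaks) in a gene of far smaller reference length. That length is from GRCr8, while the build behind the peaks was not given. Whether the deposited annotation gave Nr3c1 the same extent was not tested.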

How the data were processed

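DNA enriched by an anti-6mA antibody was sequenced in 1 library each of NSCs, Neurons and Astrocytes, with 2 inputs. Reads were aligned with BWA, per the submitters' processing notes, and the aligner version, genome build, annotation and peak caller were not given in the sources used here. Read counts per library, and mapping rates in percent, come from the authors' mapping table, per the file headers, and 1 further astrocyte input listed in it was not used here. The authors' peak lists give a score (10 times the −log10 p, at least 50 in every list) and a fold, the ratio over the input or over the other library. The authors' GO and KEGG tables hold numbers of genes per term, the ratio of observed to expected genes and adjusted p-values, per the file headers.

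Regions were read as deposited, skipping 6 blank lines, and assigned to a gene by its symbol in any annotation class. Peaks were called shared at an overlap of at least 1 bp and merged into loci on that basis. A gene's length came from GRCr8, used only for names, lengths and promoter sequences, and all 8 members and all 47 other netrin signalling genes were matched. Clopper-Pearson exact intervals (95%) cover counting error alone, as neither reads nor adjacent peaks are independent. No test between cell types was made. The members and gene lists were chosen with earlier results of these data known. The genes named were all members, the 5 other netrin signalling genes with the largest fold per list, and the 3 genes nearest to each member with at least 10 peaks; further netrin family genes, and the loci described, were chosen after their values were seen. Alternatives were a score of at least 100, gene bodies only, and a reciprocal overlap of 50%. The counting code was tested on simulated data. Python 3.11.15, numpy 2.4.6, pandas 2.3.3 and SciPy 1.17.1 were used.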

Additional observations from a re-analysis of the deposited data

How the results depend on the processing

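At a score of at least 100, the members kept 48 of 131 peaks in NSCs (36.6%), 69 of 148 in Neurons (46.6%) and 56 of 143 in Astrocytes (39.2%), where all peaks in a gene kept 43.5%, 44.2% and 43.8%. In the comparison lists they then had 6 regions for Neurons over NSCs, 2 for NSCs over Neurons, 1 for Astrocytes over NSCs, 3 for NSCs over Astrocytes, 4 for Astrocytes over Neurons and 6 for Neurons over Astrocytes. That is 15.8%, 7.14%, 3.23%, 9.09%, 14.3% and 11.8% of their regions, where all regions in a gene kept 11.2%, 7.91%, 8.19%, 9.33%, 5.77% and 9.24%. With that score required in every list, 52.1% of the members' NSC peaks were found in both other cell types. The members' shares for Neurons and Astrocytes were 36.2% and 44.6%. With a reciprocal overlap of 50%, the members' shares were 36.6%, 32.4% and 35.0% in NSCs, Neurons and Astrocytes. Shares over all peaks in a gene are not given at these settings, so these values cannot be set against all genes. Counting gene bodies only left every count of peaks and regions within 1.5 times of its value. No paired analysis was possible because each cell type had 1 immunoprecipitated library. The median score of the members' comparison regions was 61.6 to 72.5 per list, close to the lists' minimum of 50, and 1 library per cell type gives no measure of how many would recur in another.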
